A study of Homo sapiens with 12 samples.

Results

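The secreted vascular factor genes examined here are VEGFA, VEGFB, VEGFC, PGF, ANGPT1, ANGPTL4, EDN1 and ADM, 8 of the 17958 genes that had a probe set with a single gene symbol in the value table. They and the gene lists below were chosen by name with earlier results of these data known. Counts of called genes among them are therefore not those of an independent choice. Each of the 8 had 1 such probe set, and levels are log2 expression per probe set. The cells were BT549, a triple-negative breast cancer line grown without vessels, stroma or immune cells. All of them were transfected for 72 hours, with a control siRNA or with pooled siRNAs directed at c-Jun, and then kept for 6 hours with vehicle or with the inflammatory cytokine TNFα (tumour necrosis factor alpha). This gave 4 groups of 3 arrays: control siRNA with vehicle, control siRNA with TNFα, c-Jun siRNA with vehicle and c-Jun siRNA with TNFα. The TNFα dose is not given in the sources used here. The labels number the replicates without saying that they came from separate cultures, and p-values here therefore measure only how these samples spread, which may be technical. In bulk RNA, fewer cells expressing a gene and less RNA per cell cannot be told apart.

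Vascular endothelial growth factors (VEGFs) act on receptor tyrosine kinases of endothelial cells. VEGFA drives vessel sprouting through KDR, VEGFC drives lymphatic growth through FLT4, and VEGFB and placental growth factor (PGF) bind FLT1. Angiopoietin 1 (ANGPT1) stabilises vessels through the receptor TEK, and angiopoietin-like 4 (ANGPTL4) inhibits lipoprotein lipase and alters vessel permeability. Endothelin 1 (EDN1) is a strong vasoconstrictor peptide and adrenomedullin (ADM) a vasodilator peptide. Tumours secrete many of these factors, and VEGFA, ANGPTL4 and ADM are classical genes of the hypoxia response. The JUN gene encodes c-Jun, which forms part of the transcription factor AP-1.

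JUN itself checked the labels. With control siRNA it ran from 10.35 to 10.36 under vehicle and from 11.05 to 11.12 under TNFα, and with c-Jun siRNA from 9.81 to 9.85 and from 10.33 to 10.39. The fall in JUN signal was partial, leaving 69.5% with vehicle and 61.1% with TNFα. With c-Jun siRNA and TNFα its mean of 10.36 was close to the 10.35 of control siRNA with vehicle. These arrays measure RNA, so the level of c-Jun protein is not known from them. Mesenchymal genes of the line (VIM, ZEB1, CDH2, FN1, SPARC, AXL) had mean levels over 12 arrays of 9.78 to 12.66, while the receptor genes ESR1 and PGR were at 4.38 and 3.72, below the array medians of 5.62 to 5.68. Of 12 endothelial markers 10 lay below the array median on every array, among them the defining PECAM1 (4.67), CDH5 (4.33) and VWF (3.93). The summed linear signal of the 12 was 455 to 505 in control vehicle arrays, 567 to 591 in control TNFα arrays, 615 to 639 in knockdown vehicle arrays and 708 to 779 in knockdown TNFα arrays. ROBO4 and EGFL7 were the 2 markers above the medians, and ROBO4 rose in all 4 pairwise comparisons, by 0.58 to 1.05. Of the 12, TNFα with control siRNA raised 2 and lowered 1, the knockdown with vehicle raised 3 and lowered 1, and EMCN was the gene lowered in both (-0.28 and -0.41). TNFα with c-Jun siRNA raised 1 and the knockdown under TNFα raised 2, with none lower. In the same order of comparisons 35.7%, 28.9%, 29.6% and 28.5% of all genes were called, so these endothelial counts lie near or below those shares. Of 8 pericyte markers, RGS5 rose by 3.85 (log2) with the knockdown and vehicle and by 3.55 under TNFα, while PDGFRB, KCNJ8 and ABCC9 lay below the medians throughout. The knockdown with vehicle lowered 1 of the 8, CSPG4 (-0.33), and TNFα lowered MCAM under both siRNAs (-0.21 and -0.24). The summed pericyte signal was 8253 to 8301, 8265 to 8378, 9262 to 9532 and 9186 to 9592 in the same order of groups. Of 9 leukocyte markers 8 lay below the medians, with PTPRC at 3.81, and ITGAM rose with TNFα (0.78 and 0.69). CD14 fell with TNFα under control siRNA (-0.30), and CD68 rose with the knockdown and vehicle (0.11). In the order of the shares above, 2, 2, 1 and 1 of 8 pericyte markers were called. Of the 9 leukocyte markers 2, 1, 1 and 0 were called. All these counts lie below the shares of all genes. The part of these markers in the results was not tested.

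Position codes in the array names, read here as places on a plate, put all 3 arrays of c-Jun siRNA with vehicle in column 5 and those of c-Jun siRNA with TNFα in columns 7 (1 array) and 9 (2 arrays). Of the control arrays, column 5 held 1 with vehicle, column 7 held 2 with vehicle and 2 with TNFα, and column 9 held 1 with TNFα. Every siRNA comparison within a column therefore has 1 array on one side, which is assumed to vary like the other arrays, and its p-value says little about whether a difference holds. For the TNFα effect under c-Jun siRNA, position and treatment therefore cannot be told apart within those groups. The difference in TNFα response between the siRNAs (interaction below) includes that effect and shares this limit. The array name of c-Jun siRNA TNFα replicate 3 reads as a second run of replicate 1. These 2 arrays differed by a median of 0.0672 per gene, less than the other pairs of their group (0.0735 and 0.0786). All pairs of arrays of one group ran from 0.0638 to 0.0786, so this cannot tell a second run from a separate replicate. The 2 arrays were kept as separate replicates, and that group may therefore hold fewer than 3 separate samples. Averaging them ended no call on any of the 8 genes.

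RefSeq promoter windows (GRCh38.p14, 250 bases before to 50 after a start) were found for 6 of the 8 genes, with 9 starts in all, and not for VEGFA or ANGPT1. The letters searched on both strands were AP-1 sites (TGANTCA, and TGANTAA as a variant), the cyclic AMP element (TGACGTCA), an NF-kB site (GGG, any 2 bases, TTTCC) and the core of the hypoxia response element (ACGTG or GCGTG). None of these motifs overlaps another in the stretches shown. Stretches from windows of the genes whose TNFα response differed between siRNAs are shown, since those responses are the main result below. Capitals mark matches on either strand, and all stretches are written 5′ to 3′ on the gene's strand. For EDN1 (the third of 3 starts, plus strand) and PGF (the second of 2 starts, minus strand) 30 bases cut round the matches are given. For ADM and ANGPTL4 (both plus strand) the 250 bases before the start are given.
EDN1, chr6:12290234-12290263: gctgCACGTtgcctgttggTGACTAAtaac
PGF, chr14:74955742-74955771: gagagcccctcgCACGCactgcgggctccg
ADM, chr11:10304823-10305072: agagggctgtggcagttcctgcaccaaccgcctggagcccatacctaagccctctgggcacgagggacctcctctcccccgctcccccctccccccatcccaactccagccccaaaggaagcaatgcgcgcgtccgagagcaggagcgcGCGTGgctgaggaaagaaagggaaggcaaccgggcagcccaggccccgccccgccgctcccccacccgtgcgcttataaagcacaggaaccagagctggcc
ANGPTL4, chr19:8363905-8364154: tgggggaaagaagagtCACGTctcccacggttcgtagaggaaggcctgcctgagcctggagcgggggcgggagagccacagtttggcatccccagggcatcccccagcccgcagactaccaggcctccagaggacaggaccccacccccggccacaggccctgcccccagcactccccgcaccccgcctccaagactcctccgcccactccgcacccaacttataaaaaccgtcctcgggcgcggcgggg
The EDN1 stretch begins 127 bases before the start and holds the variant AP-1 letters at 108 bases and the hypoxia core at 123 bases before it. Of the EDN1 windows not shown, the first has hypoxia cores at 240, 93 and 47 bases before its start. The second has none of the letters searched. The PGF stretch has 1 hypoxia core at 162 bases. ADM has 1 hypoxia core at 101 bases and ANGPTL4 has 1 at 234 bases before the start. The 2 PGF windows overlap and share that site, so it is counted in both. Hypoxia core letters occurred in 8 of the 9 windows of these 6 genes and in 48.4% of 35116 promoter windows of the same length. The variant AP-1 letters occurred in 1 of 9 and in 9.55% of all. TGANTCA, TGACGTCA and the NF-kB letters were in none of the 9 and in 7.71%, 1.85% and 1.91% of all. These matches are descriptions of letters in these windows.

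**Figure D1:**
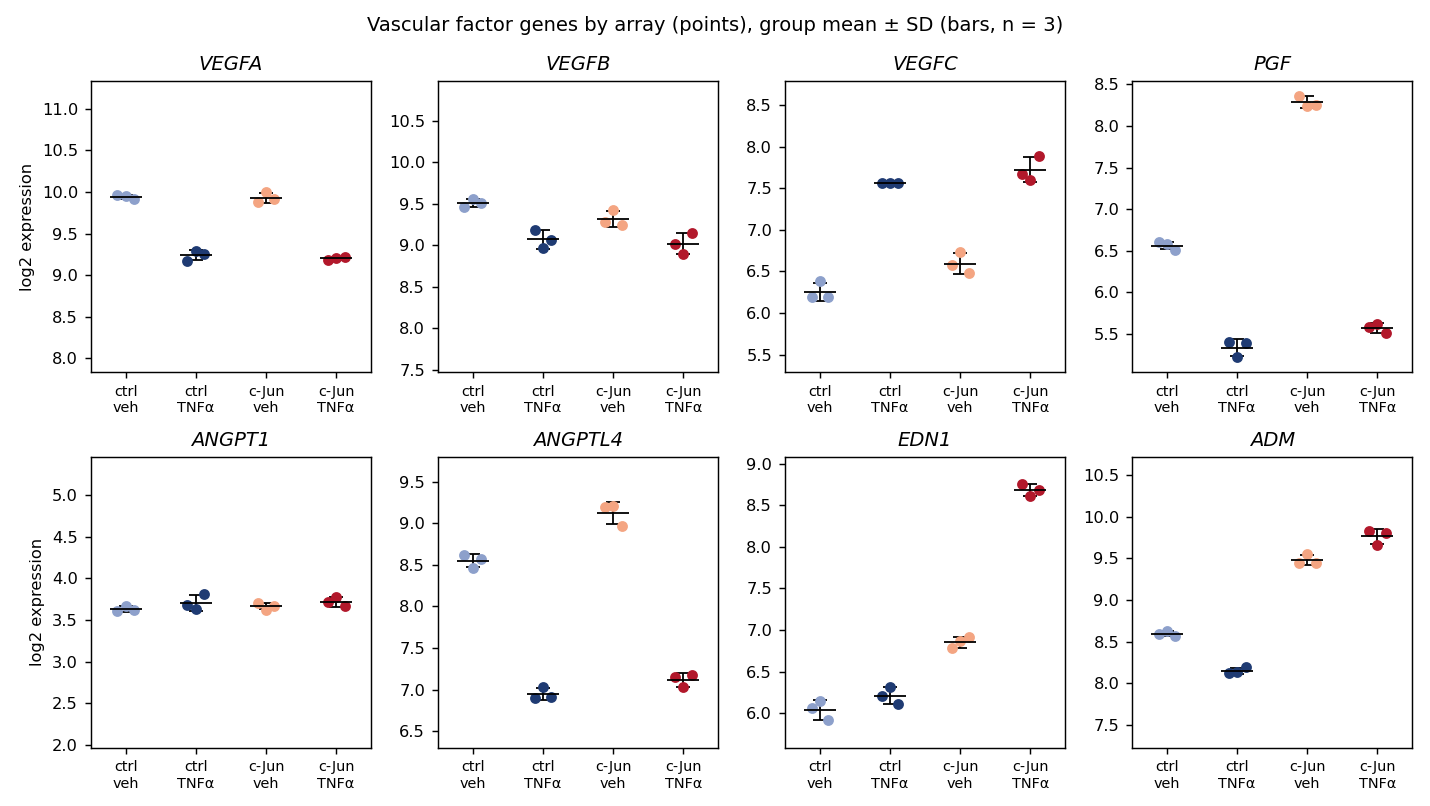
Log2 expression (vertical axis, 3.5 log2 units in every panel) of the 8 vascular factor genes in the 4 groups (horizontal axis; ctrl, control siRNA; c-Jun, c-Jun siRNA; veh, vehicle); points are single arrays and bars the mean ± SD of 3. EDN1 stands at 8.61 to 8.75 only with c-Jun siRNA and TNFα, PGF at 8.24 to 8.36 only with c-Jun siRNA and vehicle, and VEGFA is lower with TNFα under both siRNAs.

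TNFα lowered most of these genes in cells with control siRNA. VEGFA, VEGFB, PGF, ANGPTL4 and ADM fell, VEGFC rose, and EDN1 and ANGPT1 did not pass the test (limma, called at an adjusted p under 0.05 over all genes). That makes 6 of 8 called, where 35.7% of all genes were called. Of the 8, 5 were lower and 1 higher, where 21.9% of all genes fell and 13.8% rose. Of all calls in that comparison 61.3% were lower, or 63.1% with each array centred on its median. The median log2 fold change of the 8 was -0.44 against -0.023 over all genes. With c-Jun siRNA 7 of 8 were called, 3 higher and 4 lower, against 29.6% of all genes (11.3% higher and 18.3% lower). Silencing c-Jun under vehicle was called in 6 of 8, 5 higher and 1 lower, against 28.9% (14.4% higher and 14.5% lower). The median was 0.46 against -0.0073. Of all calls in that comparison 50.2% were lower, or 38.8% with each array centred on its median. Under TNFα it was called in 3 of 8, all higher, against 28.5% (14.1% higher and 14.4% lower). The response to TNFα differed between the siRNAs (interaction) in 4 of 8 genes, PGF, ANGPTL4, EDN1 and ADM, against 5.47% of all genes. It was higher in 2 (1.88% of all genes) and lower in 2 (3.59%). Of all interaction calls 65.6% were lower, or 75.2% with centring, and among calls for TNFα with c-Jun siRNA 61.7% were lower, or 70.1%. The TNFα effect with control siRNA and the siRNA effect with vehicle share the control vehicle arrays, and each other such pair shares a group as well.

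**Figure D2:**
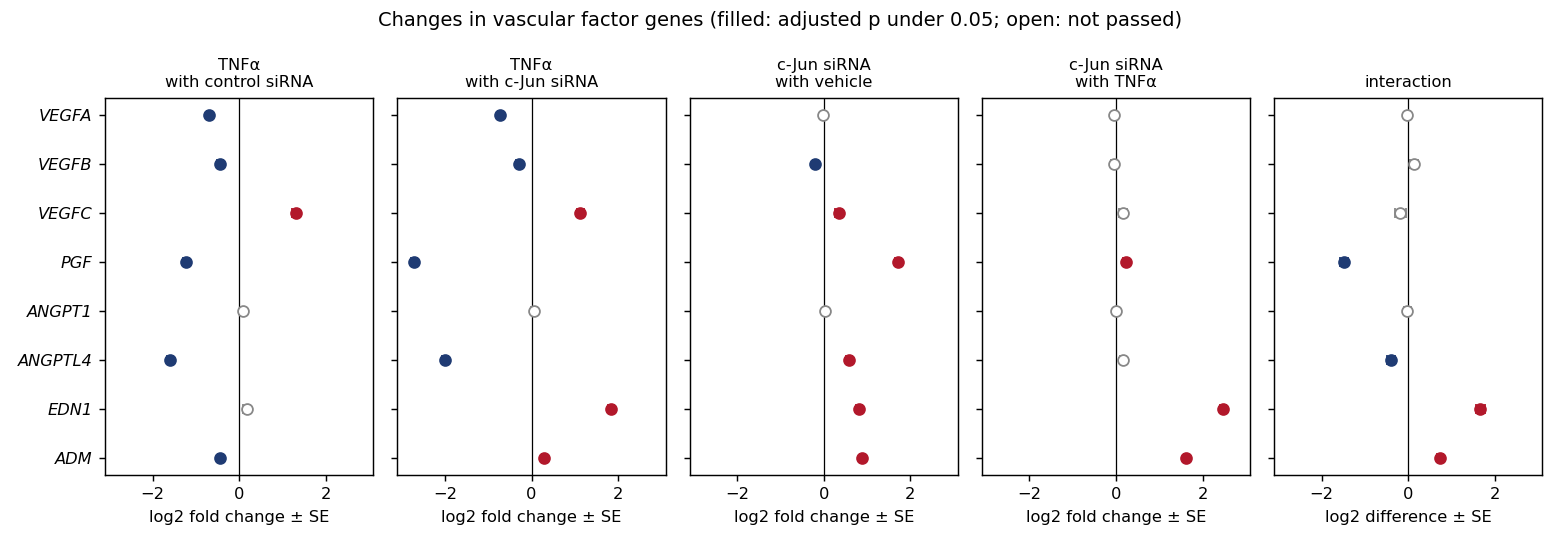
Log2 fold change (horizontal axis; for the interaction, the TNFα effect with c-Jun siRNA minus that with control siRNA) of each gene (rows) in 5 comparisons; bars are standard errors, mostly smaller than the points. Filled points passed an adjusted p of 0.05, 6, 7, 6, 3 and 4 genes from left to right, and open points did not.

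EDN1 had the largest interaction of the 8 genes, and its rise with TNFα passed the test only with c-Jun siRNA. With control siRNA it was at 6.06, 6.14 and 5.91 with vehicle and at 6.21, 6.31 and 6.11 with TNFα. The 2 groups overlapped, and the difference of 0.17 ± 0.073 (log2, SE, n = 3 per group) did not pass (adjusted p = 0.0866). Leaving out control vehicle replicate 2 (0.22, adjusted p = 0.0412) or control TNFα replicate 3 (0.22, adjusted p = 0.0444) brought it past the threshold. Its 20 alternatives gave adjusted p-values from 0.0412 to 0.476. With c-Jun siRNA the arrays stood at 6.78, 6.86 and 6.91 with vehicle and at 8.75, 8.61 and 8.68 with TNFα. Every knockdown array was above every control array, and the knockdown arrays with TNFα stood well apart from the rest. TNFα raised EDN1 by 1.83 ± 0.073 with c-Jun siRNA (adjusted p = 7.47e-13), a 3.55-fold rise. The knockdown raised it by 0.81 ± 0.073 with vehicle (1.76-fold, adjusted p = 8.77e-08) and by 2.47 ± 0.073 under TNFα (5.55-fold, adjusted p = 5.38e-14). That last difference ranked 6th in size among all 17958 genes. The interaction was 1.66 ± 0.10 (adjusted p = 1.04e-08), ranking 8th, and stayed between 1.52 and 1.72 in 24 alternatives. Within position column 7 the knockdown effect under TNFα was 2.40 and within column 9 it was 2.51, and with vehicle within column 5 it was 0.94.

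ADM, the other vasoactive peptide gene, turned its direction. With control siRNA its arrays read 8.59, 8.63 and 8.56 with vehicle and 8.12, 8.13 and 8.19 with TNFα. With c-Jun siRNA they read 9.44, 9.55 and 9.45 with vehicle and 9.82, 9.66 and 9.81 with TNFα. No 2 groups overlapped, and the order from low to high was control with TNFα, control with vehicle, c-Jun siRNA with vehicle, c-Jun siRNA with TNFα. TNFα lowered ADM to 73.3% of its vehicle level with control siRNA (-0.45 ± 0.0485, adjusted p = 5.32e-07). With c-Jun siRNA it raised ADM by 0.28 ± 0.0485 (adjusted p = 0.000143). The latter call ended with the position column as a block (0.20, adjusted p = 0.224), and its 20 alternatives gave adjusted p-values from 2.33e-05 to 0.224. The knockdown raised ADM 1.84-fold with vehicle (0.88 ± 0.0485, adjusted p = 1.12e-10) and 3.07-fold under TNFα (1.62 ± 0.0485, adjusted p = 5.38e-14). The interaction was 0.73 ± 0.069 (adjusted p = 1.45e-06). Under TNFα the knockdown effect was 1.50 within column 7 and 1.70 within column 9.

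PGF moved the opposite way to EDN1 under TNFα. Its arrays read 6.60, 6.58 and 6.51 with control siRNA and vehicle, and 5.40, 5.22 and 5.39 after TNFα. The c-Jun siRNA arrays read 8.36, 8.24 and 8.25 with vehicle and 5.58, 5.62 and 5.51 with TNFα. The knockdown arrays were the highest without the cytokine, and with it both siRNAs lay close together below the untreated control. In numbers, the knockdown raised PGF 3.30-fold with vehicle (1.72 ± 0.071, adjusted p = 2.16e-12). TNFα lowered it 2.34-fold with control siRNA (-1.23 ± 0.071, adjusted p = 9.43e-11) and 6.56-fold with c-Jun siRNA (-2.71 ± 0.071, adjusted p = 1.65e-15). The interaction of -1.49 ± 0.10 (adjusted p = 2.71e-08) ranked 10th of all genes in size. Under TNFα the knockdown effect was 0.24 ± 0.071 (adjusted p = 0.0173). That call ended without control TNFα replicate 2 (0.18, adjusted p = 0.0988) and without c-Jun siRNA TNFα replicate 2 (0.21, 0.0603). Within columns 7 and 9, with 1 array on one side, the difference was 0.32 (adjusted p = 0.0592) and 0.15 (adjusted p = 0.469). The 21 alternatives gave adjusted p-values from 0.00905 to 0.469. With TNFα PGF lay at 5.62 or lower, while the array medians were 5.62 to 5.68. No detection calls were used here, so how much of that signal was background is unknown, and the folds and the rank are those of the deposited signal.

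ANGPTL4 followed the order of PGF with a smaller knockdown effect. It stood at 8.62, 8.46 and 8.58 with control siRNA and vehicle and at 6.90, 7.03 and 6.91 after TNFα. After the knockdown it stood at 9.20, 9.20 and 8.97 with vehicle and at 7.14, 7.03 and 7.18 with TNFα. The vehicle groups did not overlap with each other or with the TNFα groups, whereas the TNFα groups overlapped. TNFα lowered ANGPTL4 3.04-fold with control siRNA (-1.60 ± 0.068, adjusted p = 1.07e-12) and 4.02-fold with c-Jun siRNA (-2.01 ± 0.068, adjusted p = 6.85e-14). The knockdown raised it by 0.57 ± 0.068 with vehicle (adjusted p = 2.72e-06). Under TNFα the difference was 0.17 ± 0.068 (adjusted p = 0.0734). It passed without control TNFα replicate 2 (0.21, adjusted p = 0.048), without c-Jun siRNA TNFα replicate 2 (0.21, 0.0381), with array weights (0.19, 0.0357) and with the dimmest 50% of genes left out (0.17, 0.0393), and its 22 alternatives gave adjusted p-values from 0.0357 to 0.799. The interaction of -0.40 ± 0.096 (adjusted p = 0.0163) ended without control vehicle replicate 2 (-0.36, adjusted p = 0.0547), without c-Jun siRNA vehicle replicate 1 (-0.37, 0.0588), with values floored at 5 (-0.40, 0.0784), with every probe set tested (-0.40, 0.0803) and with the position block (-0.39, 0.143). Its 25 alternatives gave adjusted p-values from 0.0029 to 0.143.

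**Figure D3:**
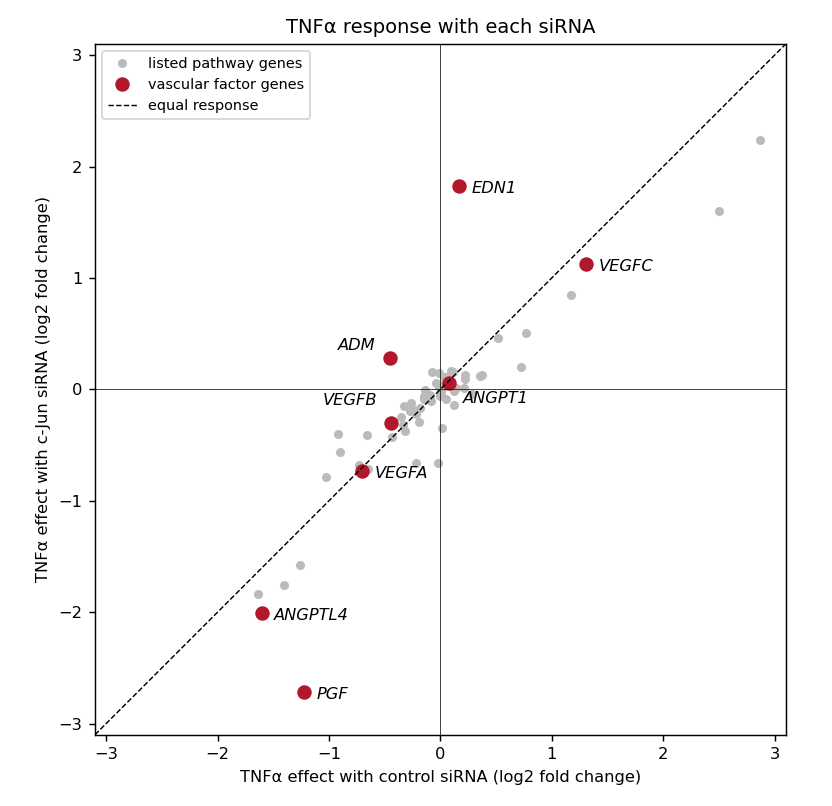
TNFα effect with control siRNA (horizontal axis) against that with c-Jun siRNA (vertical axis), both log2 fold changes; red points are the 8 vascular factor genes, grey points the measured genes of the receptor, related ligand, inhibitor and hypoxia lists, and the dashed line marks equal responses. EDN1 (0.17 and 1.83) and ADM (-0.45 and 0.28) lie above the line, PGF (-1.23 and -2.71) below it and VEGFA (-0.70 and -0.73) close to it.

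VEGFA fell with TNFα under both siRNAs, and no siRNA effect on it passed the test. Its arrays read 9.97, 9.95 and 9.91 with control siRNA and vehicle, and 9.17, 9.29 and 9.26 after TNFα. The c-Jun siRNA arrays read 9.88, 10.00 and 9.92 with vehicle and 9.18, 9.21 and 9.22 with TNFα. Groups with the same treatment overlapped, and groups with different treatments did not. TNFα lowered VEGFA to 61.5% with control siRNA (-0.70 ± 0.040, adjusted p = 7.72e-11) and to 60.3% with c-Jun siRNA (-0.73 ± 0.040, adjusted p = 5.71e-11). The siRNA effects were -0.0086 with vehicle (95% confidence interval -0.093 to 0.076) and -0.037 under TNFα (-0.12 to 0.047), and the interaction was -0.028 (-0.15 to 0.091), none of which passed.

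VEGFC was the VEGF ligand that rose. It was at 6.19, 6.38 and 6.19 with control siRNA and vehicle, at 7.56 on all 3 arrays with control siRNA and TNFα, at 6.57, 6.73 and 6.48 with c-Jun siRNA and vehicle, and at 7.67, 7.60 and 7.89 with c-Jun siRNA and TNFα. The order from low to high was control vehicle, c-Jun siRNA vehicle, control TNFα, c-Jun siRNA TNFα, with no overlap of neighbours. TNFα raised VEGFC 2.47-fold with control siRNA (1.31 ± 0.082, adjusted p = 3.16e-10) and 2.19-fold with c-Jun siRNA (1.13 ± 0.082, adjusted p = 3.33e-09). The knockdown raised it by 0.34 ± 0.082 with vehicle (adjusted p = 0.00357). Its effect under TNFα (0.16, adjusted p = 0.169) and the interaction (-0.18, adjusted p = 0.495) did not pass.

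VEGFB fell modestly with TNFα. Its levels ran from 9.46 to 9.56 with control siRNA and vehicle, from 8.96 to 9.19 with control siRNA and TNFα, from 9.25 to 9.42 with c-Jun siRNA and vehicle, and from 8.89 to 9.15 with c-Jun siRNA and TNFα. The vehicle groups lay above the TNFα groups, which overlapped. TNFα changed VEGFB by -0.44 ± 0.065 with control siRNA (adjusted p = 2.33e-05) and by -0.30 ± 0.065 with c-Jun siRNA (adjusted p = 0.00131). The knockdown effect with vehicle was -0.19 ± 0.065 (adjusted p = 0.0312). That call was lost in 11 of 21 alternatives, with adjusted p between 0.0118 and 0.129. They include leaving out control siRNA vehicle replicate 2 (-0.17, adjusted p = 0.114) or 3 (-0.19, 0.0746), c-Jun siRNA vehicle replicate 1 (-0.18, 0.105) or 3 (-0.16, 0.129). Also counted is the comparison within column 5 (-0.20, 0.0971), which has a single control array. The knockdown effect under TNFα (-0.055) and the interaction (0.14) did not pass.

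ANGPT1 lay near the bottom of the measured range. Its 12 arrays spanned 3.61 to 3.82, below the array medians, and the groups overlapped. Its mean level was above that of 7.42% of genes. The 4 pairwise differences ran from 0.011 to 0.075 and none passed, so that no change in ANGPT1 was detectable at this signal.

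Among the receptors and processing enzymes of these factors, 18 of 19 listed genes were measured. In each pairwise comparison 6 or 9 of them were called, and the 6 for TNFα with c-Jun siRNA lie near the 29.6% of all genes. With TNFα 6 rose and 3 fell under control siRNA, where 13.8% of all genes rose and 21.9% fell, led by EDNRB, the endothelin B receptor, and NRP2, a co-receptor of VEGFC. EDNRB went from 5.91 ± 0.084 (SD, n = 3) to 8.78 ± 0.062 and NRP2 from 6.01 ± 0.12 to 8.52 ± 0.10, by 2.87 and 2.50. ECE1, the enzyme that releases mature endothelin, rose by 0.52, and its relative ECE2 by 0.35. With c-Jun siRNA, TNFα raised EDNRB by 2.24, NRP2 by 1.60 and ECE1 by 0.46, among 4 genes higher and 2 lower. The EDN1 and EDNRB responses thus differed between siRNAs in opposite directions, with interactions of 1.66 and -0.63 (adjusted p = 0.000269 for EDNRB). NRP2 had an interaction of -0.90 (adjusted p = 1.36e-05), and no other of the 18 genes was called. Those 2 interaction calls stand against 5.47% of all genes. The knockdown raised 6 and lowered 3 with vehicle, where 14.4% of all genes rose and 14.5% fell. TEK rose by 0.93, ECE2 by 0.50 and NRP2 by 0.36 against NRP1 at -0.39. Under TNFα the knockdown raised 4 and lowered 5, where 14.1% of all genes rose and 14.4% fell. TEK was at 0.61 against NRP2 at -0.54, EDNRB at -0.53 and ECE1 at -0.37. RAMP1, which pairs with the receptor CALCRL, fell with TNFα (-0.20 and -0.29) and rose with the knockdown (0.30 with vehicle, 0.21 under TNFα). Its relative RAMP2 fell with the knockdown (-0.30 with vehicle, -0.30 under TNFα), and RAMP3 passed no test. CALCRL itself had a mean of 3.29, below the array medians, and changed by -0.14 with TNFα and control siRNA. The receptor genes KDR, FLT1 and FLT4 had means of 3.80, 3.60 and 4.41, below the array medians, and passed no test.

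Of 17 related ligands listed, 12 were measured. In each pairwise comparison 2 were called, where 28.5% to 35.7% of all genes were, and in the limma interaction none, where 5.47% were. APLN, which encodes the vasoactive peptide apelin, changed with TNFα by -1.40 under control siRNA and by -1.76 under c-Jun siRNA, and rose with the knockdown by 1.89 with vehicle and by 1.54 under TNFα. FGF1, a fibroblast growth factor, rose with the knockdown by 1.18 and 1.26. CALCB rose with TNFα by 0.77 and 0.50. Some of these levels lay near or below the array medians of 5.62 to 5.68. APLN was at 5.31 with control siRNA and TNFα, and FGF1 with control siRNA was at 5.63 with vehicle and 5.66 with TNFα. With vehicle CALCB was at 5.15 under control siRNA and 5.25 under c-Jun siRNA. The call count for TNFα with c-Jun siRNA was 1 with the position block, and the interaction count was 1 without control TNFα replicate 3. VEGFD, ANGPT2 and EDN2 passed no test.

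Angiogenesis inhibitor genes were called in both directions. The totals of 8, 7, 7 and 6 of 12 in the pairwise comparisons stand against 35.7%, 29.6%, 28.9% and 28.5% of all genes, and the 3 in the interaction against 5.47%. All 12 were measured, and 3 rose and 5 fell with TNFα and control siRNA, with the metalloproteinase inhibitor TIMP3 at -1.26 and VASH1 at -0.43 against ISM1 at 1.18 and thrombospondin THBS1 at 0.73. With c-Jun siRNA 2 rose and 5 fell, TIMP3 at -1.57, VASH1 at -0.42 and THBS2 at -0.37 against ISM1 at 0.84. This count was 3 in place of 7 with the position block. The knockdown with vehicle raised 3 and lowered 4, with THBS1 at 0.93 against ISM1 at -0.82, TIMP3 at -0.57 and THBS2 at -0.29. That total of 7 was 4 without c-Jun siRNA vehicle replicate 3 and 3 with the position block or within column 5. Under TNFα 2 rose and 4 fell, ISM1 at -1.16, TIMP3 at -0.88 and THBS2 at -0.35 against THBS1 at 0.40. In the interaction THBS1 (-0.53), ISM1 (-0.33) and TIMP3 (-0.31) were lower.

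**Figure D4:**
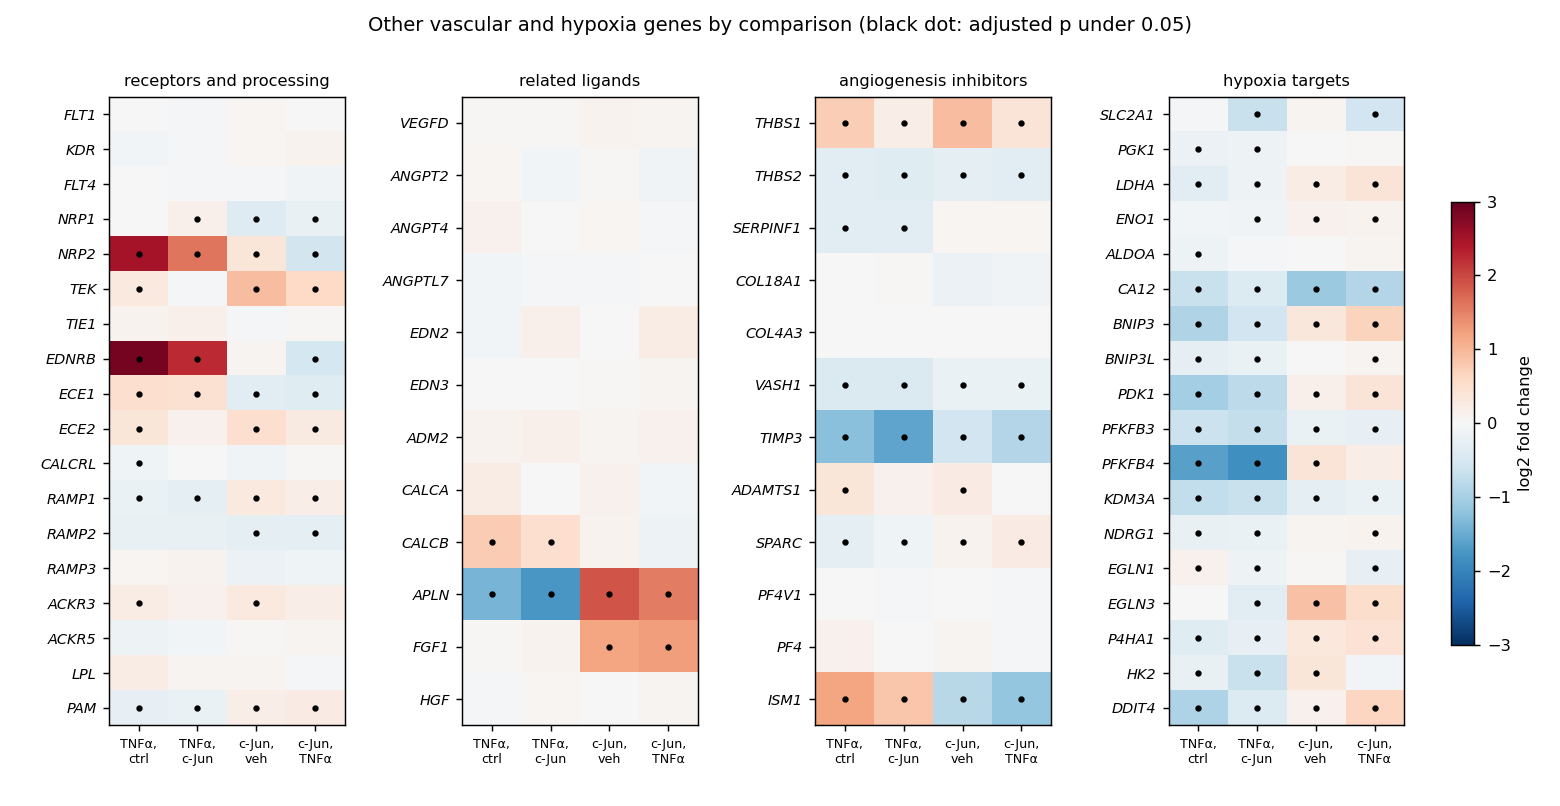
Log2 fold change (colour, from -3 to 3) of the measured genes (rows) of 4 lists in 4 comparisons (columns; the TNFα effect with control or c-Jun siRNA, then the c-Jun siRNA effect with vehicle or TNFα); a black dot marks an adjusted p under 0.05. EDNRB and NRP2 stand out in the TNFα columns and APLN is lower with TNFα and higher with c-Jun siRNA.

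Hypoxia target genes outside the 8 fell with TNFα, as VEGFA, ANGPTL4 and, with control siRNA, ADM did. Of 18 measured of 20 listed, 14 fell and 1 rose with control siRNA, where 21.9% of all genes fell and 13.8% rose. The median was -0.30 against -0.023 over all genes, led by PFKFB4 (-1.64), PDK1 (-1.03), DDIT4 (-0.92) and BNIP3 (-0.91). With c-Jun siRNA 17 fell and none rose (median -0.37), where 18.3% of all genes fell and 11.3% rose. The falls were led by PFKFB4 (-1.84), PDK1 (-0.79), PFKFB3 (-0.71) and KDM3A (-0.68), and the total was 11 with the position block. The knockdown raised 9 and lowered 3 with vehicle, where 14.4% of all genes rose and 14.5% fell. EGLN3 was at 0.89, PFKFB4 at 0.39 and HK2 at 0.35 against CA12 at -1.12. Under TNFα the knockdown raised 9 and lowered 5, where 14.1% of all genes rose and 14.4% fell. BNIP3 rose by 0.67 and DDIT4 by 0.64 against CA12 at -0.88 and the glucose transporter SLC2A1 at -0.57. The interaction was called in 8, 4 in each direction, where 1.88% of all genes were higher and 3.59% lower. SLC2A1 was at -0.64, HK2 at -0.44 and EGLN3 at -0.36 against DDIT4 at 0.52. Of 9 hypoxia regulators, 3, 5, 2 and 3 were called in the pairwise comparisons, where 35.7%, 29.6%, 28.9% and 28.5% of all genes were. All but the 5 for TNFα with c-Jun siRNA lie near those shares. HIF1A, the oxygen-regulated factor subunit, changed by -0.14 with the knockdown and vehicle and passed no other test, and VHL, which marks it for degradation, rose by 0.47 and 0.49 with TNFα. EPAS1 fell by 0.27 and 0.29 with TNFα. The 2 regulators called in the interaction were HIF1AN and CITED2. That count was 1 when any one of these arrays was left out: control vehicle replicate 2 or 3, control TNFα replicate 2, c-Jun siRNA vehicle replicate 1 or 3, or c-Jun siRNA TNFα replicate 1 or 3. The 5 called for TNFα with c-Jun siRNA were 3 without c-Jun siRNA vehicle replicate 1 or 2.

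The genes whose levels were most like each called member over the 12 arrays were named by Pearson's r, among 3131 other genes whose group means spanned at least 0.5 log2 units. These values describe arrays that fall into 4 groups and carry no test. EDN1 was followed by the acute-phase gene SAA2 (r = 0.997), VSTM1 (0.970) and AOX1 (0.967). ADM was followed by LMLN (0.987), MARCHF4 (0.985) and NMNAT2 (0.983), and PGF by PRICKLE1 (0.989), ADORA1 (0.985) and BRINP1 (0.973). ANGPTL4 was followed by KANK2 (0.993), the glycolytic regulator PFKFB4 (0.991) and CABLES1 (0.990). VEGFC was followed by PPIF (0.995), GP1BA (0.991) and the AP-1 gene JUNB (0.990). VEGFA was nearest to EHMT2, LDB1 and SH3RF1 (0.992, 0.992 and 0.991), and VEGFB to EFNA4, ZNF704 and PAX6 (0.953, 0.953 and 0.952).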

How the data were processed

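The table holds the authors' deposited log2 expression values of 33297 probe sets on 12 arrays. The submitters' processing notes name Affymetrix Expression Console 1.1 and PLIER without their roles. The log base was inferred from the range (2.27 to 13.97) and the common scale from array quartiles within 0.061. No further normalisation was applied. Single-symbol probe sets (19181) gave 17958 genes through their highest mean, with symbols updated by Entrez identifier for 19143. limma 3.58.1 (R 4.3.3) fitted 4 group means to all 12 arrays with a mean-variance trend (8 residual and 9.29 prior degrees of freedom). Tests were two-sided, with Benjamini-Hochberg adjustment over all genes of a comparison. The code was tested on simulated data. Of 127 list entries 118 were measured.

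The members and lists were chosen with earlier results of these data known. Named genes are the 8 members, JUN, markers, up to 4 called genes per list and comparison by absolute change, and the 3 genes most correlated with each called member. Further genes (RAMP1, RAMP2, RAMP3, CALCRL, KDR, FLT1, FLT4, VEGFD, ANGPT2, EDN2, HIF1A) were named for their roles after their values were seen. Same-numbered arrays of different groups had correlated deviations of -0.059 to 0.088, so the numbers were not treated as pairs. Alternatives covered scaling, floors, filters, probe-set choice, variance models, array weights, blocks, a stricter threshold and left-out arrays. Plots used matplotlib 3.10.9 in Python 3.11.15.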

Additional observations from a re-analysis of the deposited data

Results flagged for a closer look

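The TNFα response differed between the siRNAs, by the interaction test, in 4 of the 8 vascular factor genes. The response with c-Jun siRNA minus that with control siRNA was 1.66 for EDN1, 0.73 for ADM, -1.49 for PGF and -0.40 for ANGPTL4 (log2). The same test passed for JUN (-0.19) and for the following 11 genes, up to 4 per list by size. Among receptors these were NRP2 (-0.90) and EDNRB (-0.63), and among angiogenesis inhibitors THBS1 (-0.53), ISM1 (-0.33) and TIMP3 (-0.31). Of the hypoxia targets SLC2A1 (-0.64), DDIT4 (0.52), HK2 (-0.44) and EGLN3 (-0.36) had the largest differences, and of the hypoxia regulators HIF1AN (0.40) and CITED2 (-0.28). Each of these differences includes the TNFα effect with c-Jun siRNA, in which array position and treatment cannot be told apart. What lies behind these differences was not tested.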

How the results depend on the processing

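Over 40 member results and 852 alternative values, 823 kept their direction and their side of the threshold where the result was called, 23 lost the call, 6 gained one and none of the called values reversed. The number of vascular factor genes called kept within 1.5 times the main count in all alternatives but one: with the dimmest 50% of genes left out, 2 of the 5 remaining genes had a called interaction, since PGF, EDN1 and ANGPT1 were themselves left out by that filter. The filter at 30% left out ANGPT1. The replicate block changed no call on the 8 genes, with an EDN1 interaction of 1.66 and counts of 6, 7, 6, 3 and 4. Same-numbered arrays showed no shared deviation, which cannot tell whether the labels' numbers mark arrays made together. Calls lost or gained for VEGFB, PGF, ANGPTL4, EDN1 and ADM stand beside their results, and beyond those the threshold of 0.01 ended the calls on VEGFB with the knockdown and vehicle, on PGF with the knockdown under TNFα and on the ANGPTL4 interaction. VEGFB with the knockdown also lost its call with array medians centred (-0.16), a floor at 5, every probe set tested, no variance trend or the position block. The cause of the lost calls was not tested. The comparison within position columns was chosen after seeing the data. Signal near or below the array medians limits ANGPT1, PGF with TNFα, KDR, FLT1, FLT4, CALCRL and RAMP2. It also limits APLN with control siRNA and TNFα, FGF1 with control siRNA, CALCB with vehicle, EMCN, CD14, ITGAM and CDH1.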
